A study of Sus scrofa with 60 samples.

Results

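The endoplasmic reticulum (ER) folding and disposal machinery was described in the livers of neonatal pigs through 38 genes. These were chosen by name from the 30335 named genes of the count table, with earlier results of these data known. The members were 9 lumenal chaperones and co-chaperones, 3 lectin chaperones or their glucosyltransferase, 5 oxidoreductases, 10 genes of ER-associated degradation (ERAD), 7 of translocation and 4 stress sensors or their transcription factor. The liver RNA-seq series crossed 3 diets with a pair of surgeries in 60 libraries, each named here as a pig. It addressed whether a mixed lipid emulsion protects the parenterally fed neonate with an obstructed bile duct better than a soy emulsion.

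All pigs were males and females born to mixed Landrace and Hampshire sows by caesarean section 1 day before term, and all carried a jugular catheter and started on parenteral nutrition (PN). Surgery on day 1 of life was either a sham operation, with the abdomen opened and the liver handled, or bile duct ligation (BDL), in which the common and cystic ducts were tied. Enterally fed pigs (ENT) also had an orogastric tube and were moved gradually from PN to a milk replacer formula. The PN groups stayed on PN that contained soy lipid (SLE, labelled IL) or mixed lipid (MLE, labelled SL). Livers were taken on day 14 from 12 sham and 10 ligated ENT pigs, 10 and 11 SLE pigs, and 9 and 8 MLE pigs. Ligation for this time models early obstruction only, and every ENT pig had also received some PN. Counted reads per library ran from 14469788 to 21374161, with a median of 17254606.

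Secreted and membrane proteins enter the ER through the SEC61 channel, fold there with the help of chaperones, lectins and disulfide-forming enzymes, and, if they fail to fold, are drawn back to the cytosol and degraded by ERAD. Unfolded protein in the lumen activates the sensors IRE1, PERK and ATF6, which raise transcription of many of the same chaperone and ERAD genes in the unfolded protein response. Hepatocytes secrete most plasma proteins and carry a dense rough ER, so this machinery is abundant in liver.

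The tissue label was checked against marker genes. Hepatocyte markers (9 gene entries, ALB the most abundant) summed to group medians of 151600.0, 120000.0, 144100.0, 145700.0, 158100.0 and 113700.0 CPM (reads scaled to a fixed library size), the sham before the ligated group, for ENT, then SLE, then MLE livers. None of these markers had a median count of 0 in a group. CPM were computed on library sizes scaled by the trimmed mean of M values, and the 6 groups are given in that order wherever 6 values follow each other.

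A pair of libraries stood apart. ENT-sham replicate 2 and ENT-BDL replicate 1 had almost the same counts: the chi-square per degree of freedom between them came to 1.91 over 15841 genes, against 16.1 for the next closest of 1770 pairs. ENT-sham replicate 2 was the lowest ENT-sham pig for 25 of the 38 members, and ENT-BDL replicate 1 the lowest ENT-BDL pig for 26. Both were kept under their labels. Counts of called members in comparisons with an ENT group are given with and without both, and counts of other lists with both only. SLE-sham replicates 9 and 10 carried the same pig identifier, so whether both came from 1 animal is not known; the value between them was 34.2. In fits without replicate 9 and without replicate 10, SLE-sham against ENT-sham had 26 and 28 called members (26 with both), and SLE-BDL against SLE-sham 0 and 0 (1 with both). The number inside the identifiers took 8 values, of which MLE pigs carried only the 4 highest, and served as a block in an alternative fit. After group means were subtracted, pigs of different groups with the same number correlated at a median r of 0.129 over 177 pairs, against -0.0186 over 1318 other pairs, a structure that the model of 6 groups does not hold.

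All 38 members passed the filter on low counts, as did 16210 genes in all. Their summed share of each library's reads had medians of 1.04%, 0.954%, 1.62%, 1.49%, 1.27% and 1.38%. Compared per deposited gene length, as CPM per kilobase (RPKM) averaged over the 6 group means, PDIA3 (718), P4HB (708), HSPA5 (548), CALR (545) and HSP90B1 (444) had the highest levels. SSR2 (235) led the translocation genes, XBP1 (124) the sensors and HERPUD1 (93.2) the ERAD genes. This order depends on the deposited lengths, which were 1188 bases for SSR2 and 16171 for SSR3. The lowest levels per length were those of DERL3 (8.45), ERO1B (7.94) and EIF2AK3 (4.69). Between the highest and lowest group means DERL3 spanned 11.6-fold, CRELD2 5.65-fold and HSPA5 2.92-fold, while ATF6 spanned 1.14-fold (ratios of RPKM).

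Whether reads of neighbouring genes were told apart was not looked at. In whole gene spans, introns included and strand ignored, another annotated gene overlapped 12 members. The longest overlaps were those of KCNAB1 with SSR3 (25308 bases) and of C5H12orf73 with HSP90B1 (8430 bases); over all pigs the median CPM were 4.19 for KCNAB1 against 173 for SSR3, and 21.5 for C5H12orf73 against 1403 for HSP90B1. SMARCB1 (median 37.4 CPM) shared 42 bases with the end of DERL3 (16.6 CPM).

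The first question was what PN did against enteral feeding. In SLE-sham against ENT-sham livers, 24 of the 38 members were higher and 2 lower at an adjusted p under 0.05 (edgeR), where 13.9% of the 16210 genes were higher and 13.6% lower. MLE-sham against ENT-sham gave 20 higher and 3 lower members, against 10.7% and 10.4% of all genes. After ligation, SLE-BDL against ENT-BDL gave 28 higher and 0 lower members (10.4% and 9.17% of all genes). DESeq2 also called 0 members lower there, and the only negative member, OS9, had an unadjusted p of 0.135; with the identifier number as a block 25 were higher and 1, OS9, lower. MLE-BDL against ENT-BDL gave 18 higher and 2 lower (8.53% and 8.27% of all genes). Comparisons within a surgery share their ENT group. Because the members were chosen with earlier results of these data known, their excess over all genes is not an independent test.

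With a change of over 2-fold required as well, 11, 6, 11 and 5 members were higher in SLE-sham, MLE-sham, SLE-BDL and MLE-BDL against their ENT group, where 2.45%, 1.59%, 1.41% and 1.22% of all genes were. The median log2 fold change of the 38 members was 0.56, 0.34, 0.60 and 0.35 in that order, against -0.01, -0.01, 0.00 and 0.01 over all genes tested. Of the members, 17 were higher in all 4 comparisons, 3 in 3, 5 in 2, 3 in 1 and 10 in none, and only EDEM2, OS9 and ERN1 were lower in any of the 4. Of the 16210 genes tested, 486 were higher in all 4, 504 in 3, 1018 in 2 and 1573 in 1; the sham comparisons share the ENT-sham pigs and the ligated ones the ENT-BDL pigs, so these counts do not come from independent tests. Without the matching ENT libraries the higher members numbered 24, 19, 26 and 18, and the lower members 3, 3, 0 and 2. Whether more cells rich in ER or more RNA per cell lay behind such a value cannot be told apart in bulk tissue. A member that missed the threshold is not shown to be unchanged. The map of fold changes shows all 38 members in the 9 comparisons of groups.

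**Figure D1:**
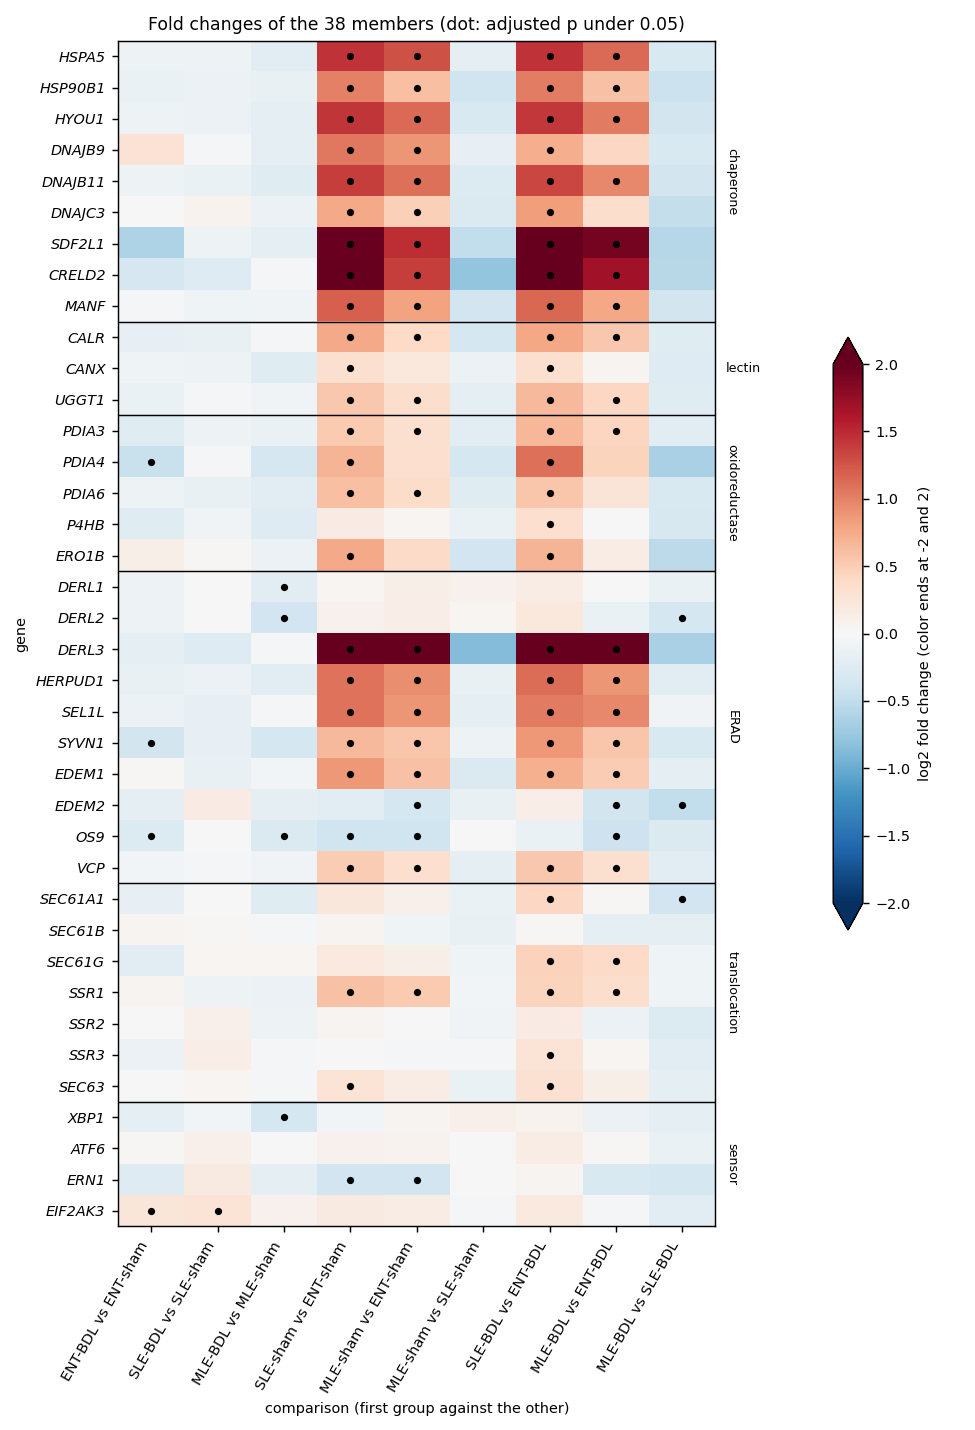
Log2 fold change (color) of each of the 38 members (vertical axis, grouped by role) in the 9 comparisons of groups (horizontal axis); a dot marks an adjusted p under 0.05. The 4 columns of PN against ENT groups hold 24, 20, 28 and 18 members with a dot and a higher value.

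All 9 lumenal chaperones were higher in SLE-sham, MLE-sham and SLE-BDL livers, and 7 in MLE-BDL. HSPA5 (gene ID 407060, chromosome 1, bases 265930044 to 265934959 on Sscrofa11.1) encodes BiP, the Hsp70 chaperone of the ER lumen that also holds the sensors inactive. In the lowest, median and highest pig, HSPA5 stood at 403, 763 and 975 CPM in ENT-sham and 423, 686 and 1187 in ENT-BDL pigs. HSPA5 reached 806, 1947 and 3084 CPM in SLE-sham livers and 1061, 1839 and 3129 CPM with ligation. HSPA5 on mixed lipid was 1175, 1595 and 2849 CPM after sham surgery and 715, 1482 and 2113 after ligation. Of the pigs given soy lipid, all but SLE-sham replicate 10 and SLE-BDL replicate 11 exceeded the highest pig of their ENT group; every MLE-sham pig did, and every MLE-BDL pig except replicate 2. HSPA5 log2 fold changes over ENT-sham were 1.45 ± 0.18 (adjusted p 1.03e-08) in SLE-sham and 1.27 ± 0.19 (adjusted p 7.23e-07) in MLE-sham. Over ENT-BDL, HSPA5 changed by 1.44 ± 0.19 (adjusted p 1.15e-07) in SLE-BDL and 1.14 ± 0.20 (adjusted p 4e-05) in MLE-BDL. HSPA5 gave 1.39, 1.21, 1.38 and 1.07 in these 4 comparisons without the matching ENT libraries. Errors are standard errors here and in what follows.

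HSP90B1 (gene ID 397191, chromosome 5, bases 80511513 to 80531016) encodes GRP94, the Hsp90 of the ER lumen. HSP90B1 values were 653, 1096 and 1443 CPM in ENT-sham and 661, 881 and 1806 in ENT-BDL pigs. In SLE-sham and SLE-BDL pigs HSP90B1 reached 969, 2062 and 3192 CPM and 1201, 1919 and 3150.3 CPM. HSP90B1 in the mixed lipid groups came to 1202, 1674 and 2063 CPM (MLE-sham) and 716, 1418 and 2018 CPM (MLE-BDL). The groups overlapped: 8 of 10 SLE-sham and 5 of 9 MLE-sham pigs lay above every ENT-sham pig, and 7 of 11 SLE-BDL and 3 of 8 MLE-BDL pigs above every ENT-BDL pig. HSP90B1 log2 fold changes over ENT-sham were 1.01 ± 0.18 (adjusted p 9.1e-06) in SLE-sham and 0.61 ± 0.18 (adjusted p 0.0101) in MLE-sham. Over ENT-BDL, HSP90B1 changed by 1.02 ± 0.18 (adjusted p 3.13e-05) in SLE-BDL and 0.59 ± 0.19 (adjusted p 0.0261) in MLE-BDL. HSP90B1 gave 0.95, 0.55, 0.97 and 0.54 in these 4 comparisons without the matching ENT libraries. In the MLE-BDL comparison the HSP90B1 call was lost when either ENT-BDL replicate 1 or MLE-BDL replicate 4, 7 or 8 was left out, and when the groups were fitted alone, with adjusted p from 0.00518 to 0.0732 over all alternatives. HYOU1 (gene ID 100516870, chromosome 9, bases 46264929 to 46277056) encodes GRP170, a large Hsp70-like chaperone that also exchanges the nucleotide of BiP. HYOU1 stood at 109, 173 and 238 CPM in ENT-sham and 134, 152 and 193 in ENT-BDL pigs. On soy lipid HYOU1 ran at 162, 452 and 725 CPM (sham) and 236, 384 and 792 CPM (BDL). Mixed lipid gave HYOU1 values of 245, 339 and 493.4 CPM (sham) and 154, 322 and 454 CPM (BDL). Neither MLE-sham nor SLE-BDL pigs overlapped with their ENT group in HYOU1, and only SLE-sham replicate 10 and MLE-BDL replicate 2 fell within theirs. HYOU1 log2 fold changes over ENT-sham were 1.43 ± 0.17 (adjusted p 2.95e-09) in SLE-sham and 1.12 ± 0.18 (adjusted p 2.29e-06) in MLE-sham. Over ENT-BDL, HYOU1 changed by 1.41 ± 0.18 (adjusted p 4.2e-08) in SLE-BDL and 1.04 ± 0.19 (adjusted p 6.41e-05) in MLE-BDL. HYOU1 gave 1.39, 1.09, 1.38 and 1.01 in these 4 comparisons without the matching ENT libraries.

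DNAJB9 (gene ID 100521593, chromosome 18, bases 36578928 to 36584211) and DNAJB11 (gene ID 100152894, chromosome 13, bases 124387921 to 124409967) encode ERdj4 and ERdj3, J-domain partners of BiP. DNAJB9 values were 51.5, 71.4 and 96.7 CPM in ENT-sham and 62.4, 83.7 and 179 in ENT-BDL pigs. In SLE-sham and SLE-BDL pigs DNAJB9 reached 73.3, 142 and 245 CPM and 93.0, 149 and 205 CPM. DNAJB9 in the mixed lipid groups came to 90.7, 126 and 207 CPM (MLE-sham) and 79.8, 117 and 157 CPM (MLE-BDL). For DNAJB9, 9 of 10 SLE-sham and 8 of 9 MLE-sham pigs lay above every ENT-sham pig, and 2 of 11 SLE-BDL and 0 of 8 MLE-BDL pigs above every ENT-BDL pig. A single high pig, ENT-BDL replicate 4, set the top of the ENT-BDL range. DNAJB9 log2 fold changes over ENT-sham were 1.05 ± 0.16 (adjusted p 7.67e-07) in SLE-sham and 0.88 ± 0.17 (adjusted p 5.12e-05) in MLE-sham. Over ENT-BDL, DNAJB9 changed by 0.73 ± 0.17 (adjusted p 0.00103) in SLE-BDL and 0.42 ± 0.18 (adjusted p 0.0969) in MLE-BDL. DNAJB9 gave 1.04, 0.87, 0.69 and 0.37 in these 4 comparisons without the matching ENT libraries. DNAJB11 stood at 33.1, 53.6 and 69.7 CPM in ENT-sham and 33.2, 49.9 and 70.9 in ENT-BDL pigs. Soy lipid pigs held 52.1, 125 and 213 CPM of DNAJB11 after sham surgery and 62.9, 116 and 213 after ligation. With the mixed lipid, DNAJB11 stood at 75.2, 105 and 158 and 46.1, 88.5 and 128 CPM. Apart from SLE-sham replicate 10, SLE-BDL replicate 11 and MLE-BDL replicate 2, every PN pig exceeded the highest DNAJB11 value of its ENT group. DNAJB11 log2 fold changes over ENT-sham were 1.38 ± 0.18 (adjusted p 3.06e-08) in SLE-sham and 1.10 ± 0.19 (adjusted p 1.03e-05) in MLE-sham. Over ENT-BDL, DNAJB11 changed by 1.34 ± 0.19 (adjusted p 4.7e-07) in SLE-BDL and 0.96 ± 0.20 (adjusted p 0.000377) in MLE-BDL. DNAJB11 gave 1.33, 1.04, 1.29 and 0.91 in these 4 comparisons without the matching ENT libraries.

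SDF2L1 (gene ID 100156780, chromosome 14, bases 50249607 to 50251636), a partner of ERdj3 in keeping unfolded chains soluble, covered the widest range among the chaperones. SDF2L1 values were 18.8, 35.3 and 78.8 CPM in ENT-sham and 15.5, 21.4 and 45.7 in ENT-BDL pigs. In SLE-sham and SLE-BDL pigs SDF2L1 reached 41.6, 134 and 297 CPM and 37.0, 145 and 232 CPM. SDF2L1 in the mixed lipid groups came to 58.7, 92.4 and 178 CPM (MLE-sham) and 24.0, 82.6 and 165 CPM (MLE-BDL). SDF2L1 overlapped through few pigs: 9 of 10 SLE-sham and 7 of 9 MLE-sham pigs lay above every ENT-sham pig, and 10 of 11 SLE-BDL and 7 of 8 MLE-BDL pigs above every ENT-BDL pig. SDF2L1 log2 fold changes over ENT-sham were 1.97 ± 0.28 (adjusted p 1.3e-07) in SLE-sham and 1.48 ± 0.28 (adjusted p 6.64e-05) in MLE-sham. Over ENT-BDL, SDF2L1 changed by 2.48 ± 0.30 (adjusted p 1.24e-08) in SLE-BDL and 1.91 ± 0.31 (adjusted p 6.81e-06) in MLE-BDL. SDF2L1 gave 1.91, 1.41, 2.44 and 1.87 in these 4 comparisons without the matching ENT libraries. CRELD2 (gene ID 100520025, chromosome 5, bases 709042 to 716766) encodes a cysteine-rich ER protein with disulfide isomerase activity. CRELD2 stood at 26.1, 49.7 and 76.2 CPM in ENT-sham and 28.1, 41.9 and 48.9 in ENT-BDL pigs. CRELD2 reached 62.3, 189 and 487 CPM in SLE-sham livers and 54.4, 172 and 443 CPM with ligation. CRELD2 on mixed lipid was 63.5, 120.1 and 224 CPM after sham surgery and 42.3, 128 and 206 after ligation. No SLE-BDL pig fell within the CRELD2 range of ENT-BDL, and 1 pig in each other PN group did. CRELD2 log2 fold changes over ENT-sham were 2.17 ± 0.27 (adjusted p 5.53e-09) in SLE-sham and 1.38 ± 0.27 (adjusted p 0.000103) in MLE-sham. Over ENT-BDL, CRELD2 changed by 2.25 ± 0.28 (adjusted p 3.29e-08) in SLE-BDL and 1.69 ± 0.29 (adjusted p 2.71e-05) in MLE-BDL. CRELD2 gave 2.10, 1.31, 2.20 and 1.63 in these 4 comparisons without the matching ENT libraries.

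MANF (gene ID 100505460, chromosome 13, bases 33658279 to 33662218) encodes a small protein retained in the ER that binds BiP. MANF values were 49.4, 83.9 and 109 CPM in ENT-sham and 47.4, 80.9 and 101 in ENT-BDL pigs. In SLE-sham and SLE-BDL pigs MANF reached 84.0, 177 and 296 CPM and 93.9, 168 and 268 CPM. MANF in the mixed lipid groups came to 97.8, 126 and 209 CPM (MLE-sham) and 65.9, 138 and 173 CPM (MLE-BDL). Only 1 MANF value per PN group lay within the range of the matching ENT group. MANF log2 fold changes over ENT-sham were 1.19 ± 0.17 (adjusted p 1.54e-07) in SLE-sham and 0.81 ± 0.17 (adjusted p 0.000369) in MLE-sham. Over ENT-BDL, MANF changed by 1.15 ± 0.18 (adjusted p 2.31e-06) in SLE-BDL and 0.77 ± 0.19 (adjusted p 0.00216) in MLE-BDL. MANF gave 1.14, 0.75, 1.08 and 0.71 in these 4 comparisons without the matching ENT libraries. DNAJC3, which encodes the BiP partner P58IPK, had group medians of 90.8, 92.0, 145, 160.0, 133 and 122 CPM. DNAJC3 passed the threshold in SLE-sham (0.77), MLE-sham (0.48) and SLE-BDL (0.83), while its log2 fold change in MLE-BDL was 0.35 (adjusted p 0.0975). DNAJB9 was the other chaperone past the threshold in 3 of these comparisons, and neither gene's ligation response passed the threshold between MLE and ENT (adjusted p 0.588 for DNAJB9 and 0.915 for DNAJC3). With library totals as the only scaling both passed in MLE-BDL too, as did PDIA4 and PDIA6.

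**Figure D2:**
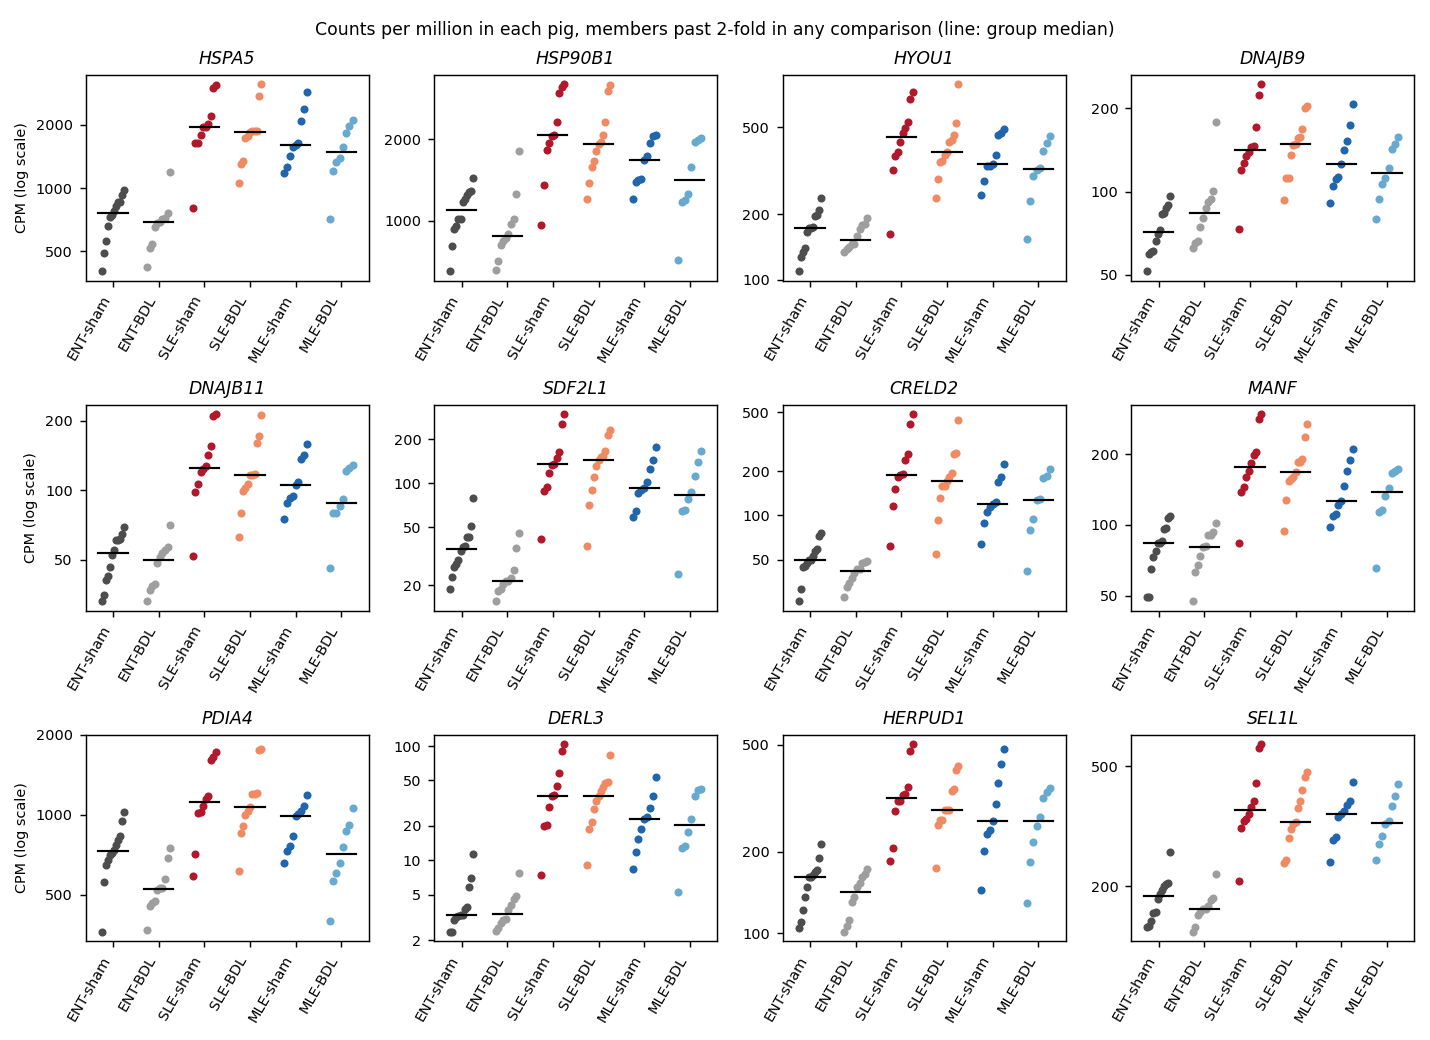
CPM (vertical axes, log scale) of the 12 members past 2-fold with an adjusted p under 0.05 in any comparison of groups, by group (horizontal axes); points are pigs and lines are group medians. DERL3 medians run from 3.33 and 3.39 in the ENT groups to between 20.3 and 36.9 in the PN groups.

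The 3 genes of the lectin cycle had medians of 0.54, 0.35, 0.65 and 0.41 in the 4 comparisons, and the 5 oxidoreductases 0.61, 0.33, 0.66 and 0.26. CALR and CANX encode calreticulin and calnexin, which hold monoglucosylated glycoproteins, and UGGT1 the enzyme that puts the glucose back on misfolded ones. CALR and UGGT1 were higher in all 4 comparisons, with log2 fold changes of 0.76, 0.40, 0.77 and 0.53 for CALR. Their lowest group medians were 731 CPM for CALR and 111 for UGGT1, both in ENT-BDL, and the highest 1285 (SLE-sham) and 178 (SLE-BDL). CANX was higher with soy lipid only, by 0.33 in sham (adjusted p 0.0096) and 0.32 after ligation (0.0192), against 0.21 (0.14) and 0.06 (0.762) with mixed lipid. Between MLE-sham and SLE-sham the CANX difference itself was -0.12 (adjusted p 0.762), and between the ligated groups -0.26 (0.27). The CANX call in SLE-BDL was lost with the identifier block and with the groups fitted alone, and the CALR call in MLE-sham with the identifier block.

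PDIA4 (gene ID 100522203, chromosome 9, bases 109260850 to 109280256) encodes ERp72, a disulfide isomerase with several thioredoxin-like domains. PDIA4 stood at 362, 727 and 1021 CPM in ENT-sham and 368, 524 and 752 in ENT-BDL pigs. On soy lipid PDIA4 ran at 588, 1113 and 1721 CPM (sham) and 616, 1071 and 1766 CPM (BDL). Mixed lipid gave PDIA4 values of 656, 993 and 1192 CPM (sham) and 396, 709 and 1063 CPM (BDL). PDIA4 ranges overlapped in each comparison: 7 of 10 SLE-sham and 3 of 9 MLE-sham pigs exceeded the ENT-sham range, and 10 of 11 SLE-BDL and 4 of 8 MLE-BDL pigs that of ENT-BDL. PDIA4 log2 fold changes over ENT-sham were 0.68 ± 0.16 (adjusted p 0.00108) in SLE-sham and 0.33 ± 0.17 (adjusted p 0.158) in MLE-sham. Over ENT-BDL, PDIA4 changed by 1.10 ± 0.17 (adjusted p 2.87e-06) in SLE-BDL and 0.45 ± 0.18 (adjusted p 0.0821) in MLE-BDL. PDIA4 gave 0.61, 0.26, 1.05 and 0.39 in these 4 comparisons without the matching ENT libraries. PDIA4 was also lower in ENT-BDL than in ENT-sham, at -0.45 ± 0.17 (adjusted p 0.0495); this call was lost without any 1 of 40 pigs and in 3 further alternatives, with adjusted p from 0.0137 to 0.111.

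PDIA3, the isomerase that works with the lectins, was higher in all 4 comparisons, by 0.53, 0.32, 0.66 and 0.44. Its MLE-sham value (adjusted p 0.043) passed the threshold no longer without the matching libraries, with no filter, with the replicate block and without any 1 of 12 pigs (adjusted p from 0.0246 to 0.0966). PDIA6 was higher in SLE-sham (0.61), MLE-sham (0.36) and SLE-BDL (0.56), and ERO1B, an oxidase that recharges the isomerases, in SLE-sham (0.77) and SLE-BDL (0.67), and in MLE-sham as well when only the groups compared were fitted. P4HB, which encodes PDI itself, passed the threshold in SLE-BDL alone, at 0.34 (adjusted p 0.0364), and lost that call without the matching libraries. Tested directly, mixed against soy lipid gave -0.35 (adjusted p 0.454) in sham and -0.65 (0.062) in ligated pigs for PDIA4, -0.24 (adjusted p 0.462) in sham and -0.30 (0.281) in ligated pigs for PDIA6, and -0.39 (adjusted p 0.396) in sham and -0.52 (0.163) in ligated pigs for ERO1B. The P4HB call was lost in 4 alternatives and without any 1 of 12 pigs, and the PDIA6 call in MLE-sham without MLE-sham replicate 5. Median P4HB was 1731, 1366, 1889, 1971, 1655 and 1386 CPM.

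ERAD genes divided. DERL3, HERPUD1, SEL1L, SYVN1, EDEM1 and VCP were higher in all 4 comparisons with ENT groups, DERL1 and DERL2 passed the threshold in none of them, and OS9 and EDEM2 were lower where they passed it in the model of all pigs. DERL3 (gene ID 100155947, chromosome 14, bases 49871077 to 49875022) encodes a derlin, a membrane protein of the channel through which substrates leave the ER. DERL3 stood at 2.38, 3.33 and 11.3 CPM in ENT-sham and 2.40, 3.39 and 7.69 in ENT-BDL pigs. Soy lipid pigs held 7.37, 36.9 and 104 CPM of DERL3 after sham surgery and 9.02, 36.6 and 83.7 after ligation. With the mixed lipid, DERL3 stood at 8.40, 23.1 and 53.9 and 5.28, 20.3 and 41.7 CPM. The DERL3 ranges of SLE-BDL and ENT-BDL did not overlap, and SLE-sham replicate 10, MLE-sham replicate 7 and MLE-BDL replicate 2 were the PN pigs within the range of their ENT group. DERL3 log2 fold changes over ENT-sham were 3.34 ± 0.37 (adjusted p 3.94e-10) in SLE-sham and 2.48 ± 0.37 (adjusted p 9.59e-07) in MLE-sham. Over ENT-BDL, DERL3 changed by 3.27 ± 0.39 (adjusted p 1.38e-08) in SLE-BDL and 2.63 ± 0.40 (adjusted p 3.22e-06) in MLE-BDL. DERL3 gave 3.32, 2.45, 3.26 and 2.62 in these 4 comparisons without the matching ENT libraries. No other member had a larger log2 fold change in any of the 4 comparisons.

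HERPUD1 (gene ID 100622579, chromosome 6, bases 18901171 to 18913427) encodes a membrane protein that recruits the HRD1 ligase complex. HERPUD1 values were 105, 162 and 215 CPM in ENT-sham and 101, 142 and 173 in ENT-BDL pigs. In SLE-sham and SLE-BDL pigs HERPUD1 reached 186, 317 and 502 CPM and 174, 286 and 418 CPM. HERPUD1 in the mixed lipid groups came to 144, 259.7 and 482 CPM (MLE-sham) and 129, 259.7 and 345 CPM (MLE-BDL). For HERPUD1, 8 of 10 SLE-sham and 7 of 9 MLE-sham pigs lay above every ENT-sham pig, and 11 of 11 SLE-BDL and 7 of 8 MLE-BDL pigs above every ENT-BDL pig. HERPUD1 log2 fold changes over ENT-sham were 1.08 ± 0.17 (adjusted p 7.17e-07) in SLE-sham and 0.93 ± 0.17 (adjusted p 3.14e-05) in MLE-sham. Over ENT-BDL, HERPUD1 changed by 1.11 ± 0.17 (adjusted p 2.49e-06) in SLE-BDL and 0.88 ± 0.18 (adjusted p 0.000351) in MLE-BDL. HERPUD1 gave 1.04, 0.89, 1.08 and 0.85 in these 4 comparisons without the matching ENT libraries. SEL1L (gene ID 100520751, chromosome 7, bases 104219628 to 104283250) encodes the adaptor that stabilises HRD1 and hands it substrates. SEL1L stood at 147, 185 and 260.1 CPM in ENT-sham and 142, 168 and 220.2 in ENT-BDL pigs. SEL1L reached 209, 357 and 591 CPM in SLE-sham livers and 239, 328 and 480.1 CPM with ligation. SEL1L on mixed lipid was 240.1, 347 and 444 CPM after sham surgery and 244, 325 and 437 after ligation. No SLE-BDL or MLE-BDL pig lay within the SEL1L range of ENT-BDL; SLE-sham replicate 10 and MLE-sham replicate 9 lay within that of ENT-sham. SEL1L log2 fold changes over ENT-sham were 1.08 ± 0.13 (adjusted p 1.34e-09) in SLE-sham and 0.88 ± 0.13 (adjusted p 5.89e-07) in MLE-sham. Over ENT-BDL, SEL1L changed by 1.03 ± 0.13 (adjusted p 3.5e-08) in SLE-BDL and 0.97 ± 0.14 (adjusted p 8.01e-07) in MLE-BDL. SEL1L gave 1.05, 0.85, 1.00 and 0.93 in these 4 comparisons without the matching ENT libraries. SEL1L had the smallest adjusted p of the 38 members in both mixed lipid comparisons.

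SYVN1, the HRD1 ligase, changed by 0.66, 0.55, 0.86 and 0.56 in SLE-sham, MLE-sham, SLE-BDL and MLE-BDL against their ENT groups, EDEM1, a mannosidase-like protein that marks glycoproteins for disposal, by 0.87, 0.58, 0.71 and 0.51, and VCP, the ATPase that pulls substrates out, by 0.52, 0.33, 0.55 and 0.32. The VCP call in MLE-BDL was lost without MLE-BDL replicate 4 (adjusted p 0.051). OS9 (gene ID 110260688, chromosome 5, bases 22957903 to 23004464) encodes a lectin that delivers glycoproteins to HRD1. OS9 fell to 135, 159.6 and 189 CPM in SLE-sham, 134, 158 and 204 in MLE-sham and 115, 129.8 and 160.1 in MLE-BDL, from 143, 204 and 266 in ENT-sham and 145, 166 and 219.6 in ENT-BDL pigs. Its ranges overlapped in each comparison, with 7 of 8 MLE-BDL pigs below every ENT-BDL pig. OS9 log2 fold changes were -0.41 ± 0.08 (adjusted p 0.000147) in SLE-sham, -0.39 ± 0.09 (adjusted p 0.000535) in MLE-sham and -0.42 ± 0.09 (adjusted p 0.000838) in MLE-BDL. SLE-BDL pigs, at 139, 161 and 189 CPM, showed -0.13 ± 0.09 (adjusted p 0.301), though OS9 was called lower there with the identifier number as a block, and the difference in the OS9 ligation response between SLE and ENT was 0.28 ± 0.12 (adjusted p 0.235).

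EDEM2 (gene ID 100621927, chromosome 17, bases 38483190 to 38515243), the mannosidase that starts trimming, had the smallest adjusted p of the members between the lipids after ligation. EDEM2 ran at 30.3, 38.9 and 48.6 CPM in MLE-BDL and 39.7, 56.7 and 68.2 in SLE-BDL pigs. Of the 8 MLE-BDL pigs, 5 lay below every SLE-BDL pig. The difference was -0.49 ± 0.11 (adjusted p 0.0107), and it was lost with the identifier number as a block or with only these groups fitted (adjusted p from 0.00207 to 0.292). Against ENT pigs, EDEM2 changed by -0.36 ± 0.10 (adjusted p 0.00685) in MLE-sham and -0.36 ± 0.11 (adjusted p 0.0137) in MLE-BDL. With the identifier block both calls were lost. In SLE-sham EDEM2 changed by -0.21 (adjusted p 0.0955) and in SLE-BDL by 0.13 (0.403). Without the matching ENT libraries EDEM2 was called lower in SLE-sham, at -0.25 (adjusted p 0.0419). DERL1 and DERL2, the other derlins, changed by 0.04, 0.12, 0.15 and 0.02 and by 0.09, 0.13, 0.21 and -0.14 in the 4 PN comparisons.

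Translocation genes had median log2 fold changes of 0.20, 0.09, 0.31 and 0.04 in the 4 PN comparisons, and the sensors 0.01, 0.06, 0.11 and -0.07. SSR1, the alpha subunit of the translocon-associated TRAP complex, was higher in all 4 comparisons, by 0.58, 0.53, 0.44 and 0.35. SEC61G, the gamma subunit of the channel, was higher in SLE-BDL (0.46) and MLE-BDL (0.38), and SEC63, which couples the channel to BiP, in SLE-sham (0.28) and SLE-BDL (0.31). SEC61A1, the pore itself, passed the threshold in SLE-BDL, at 0.41 ± 0.10 (adjusted p 0.00167), and SSR3, the TRAP gamma subunit, at 0.27 ± 0.09 (adjusted p 0.028), a call lost without the matching libraries, with library totals only, with these groups fitted alone, with the identifier block and without any 1 of 5 pigs. The SEC63 call in SLE-BDL was lost with the groups fitted alone, and library totals as the only scaling added SEC61A1 and SEC61G in SLE-sham. SEC61B and SSR2 passed it in none of the 9 comparisons of groups, with medians between 74.1 and 86.5 CPM for SEC61B and between 252 and 316 CPM for SSR2. Both ranges overlapped across all groups.

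In the model of all pigs no sensor gene was called higher with PN, while the replicate block called EIF2AK3 higher in SLE-BDL. ERN1, which encodes the kinase and RNase IRE1, was lower in SLE-sham (-0.38, adjusted p 0.0062) and MLE-sham (-0.38, 0.0117), with medians of 114 CPM in ENT-sham, 83.3 in SLE-sham and 83.4 in MLE-sham livers. After ligation ERN1 changed by 0.06 (adjusted p 0.776) in SLE-BDL and -0.30 (0.0815) in MLE-BDL. XBP1, the transcription factor whose messenger IRE1 splices, changed by -0.05, 0.05, 0.06 and -0.12 in the 4 comparisons, and ATF6 by 0.08, 0.06, 0.15 and 0.02; neither passed the threshold in any of the 4. Splicing of XBP1 is not seen in gene counts. EIF2AK3, which encodes PERK, changed by 0.18, 0.15, 0.20 and -0.02, with adjusted p of 0.0721, 0.188, 0.0579 and 0.932.

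Ligation was compared with sham surgery within each diet. In ENT pigs 1 member was higher and 3 lower, where 8.89% and 8.53% of all genes were, and in SLE pigs 1 was higher and 0 lower, where 2.97% and 1.57% were. MLE pigs had 0 higher and 4 lower members, where 7.85% and 6.58% of all genes were. These shares lay near or below those of all genes, apart from the lower members in MLE pigs, and are not results about the members. At an unadjusted p under 0.05 in edgeR there were 9, 1 and 7 of the 38 members in these 3 comparisons. Of the 16210 genes tested, 4869, 2963 and 4511 were at that level, a larger share each time. DESeq2 called 1 member higher and 3 lower, 1 and 0, and 0 and 4. Without the matching ENT libraries 1 member was again higher and 3 lower in ENT pigs, with a median log2 fold change of -0.12. The members' median log2 fold changes were -0.11 in ENT, -0.05 in SLE and -0.14 in MLE pigs, but with library totals as the only scaling 29 of the 38 members were positive in MLE pigs, with a median of 0.08, and 17 instead of 9 in ENT pigs, with a median of -0.01.

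EIF2AK3 (gene ID 100513348, chromosome 3, bases 57423894 to 57506247) had the smallest adjusted p in SLE pigs and was called higher after ligation in ENT and SLE pigs. With library totals as the only scaling EIF2AK3, ATF6 and SEC61G were called higher in MLE pigs. EIF2AK3 rose from 17.7, 21.7 and 24.6 CPM in SLE-sham to 20.5, 26.4 and 31.3 in SLE-BDL pigs, and from 15.6, 18.8 and 21.8 in ENT-sham to 18.7, 21.8 and 26.7 in ENT-BDL. In SLE-BDL 7 of 11 pigs lay above every SLE-sham pig, and in ENT-BDL 5 of 10 above every ENT-sham pig. EIF2AK3 log2 fold changes were 0.27 ± 0.08 (adjusted p 0.0339) in SLE, 0.25 ± 0.08 (adjusted p 0.0184) in ENT and 0.08 ± 0.09 (adjusted p 0.58) in MLE pigs. The SLE call was lost in 4 alternatives and without any 1 of 11 pigs (adjusted p from 0.0145 to 0.0773). Differences in the EIF2AK3 response between diets were 0.02 (SLE against ENT, adjusted p 0.962), -0.16 (MLE against ENT, 0.739) and -0.19 (MLE against SLE, 0.651).

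OS9 had the smallest adjusted p after ligation in ENT pigs, at -0.27 ± 0.08 (adjusted p 0.0172), with no ENT-BDL pig below the ENT-sham range; the call was lost with library totals only and with the ENT groups fitted alone (adjusted p from 0.00187 to 0.102). SYVN1 was also lower there, at -0.36 ± 0.13 (adjusted p 0.0468), a call lost in 4 alternatives and without any 1 of 18 pigs. For SYVN1, ENT-BDL replicates 4 and 5 stood at 36.3 and 58.0 CPM. The other ENT-BDL pigs ran from 83.7 to 108 CPM and the ENT-sham pigs from 88.7 to 131 CPM. DERL2 (gene ID 110256099, chromosome 12, bases 51508138 to 51524799) had the smallest adjusted p in MLE pigs. DERL2 stood at 53.4, 65.6 and 74.9 CPM in MLE-sham and 39.0, 49.1 and 53.8 in MLE-BDL pigs, 6 of 8 of which lay below every MLE-sham pig. DERL2 changed by -0.38 ± 0.10 (adjusted p 0.00381), XBP1 by -0.35 ± 0.10 (adjusted p 0.0104), OS9 by -0.30 ± 0.09 (adjusted p 0.0256) and DERL1 by -0.20 ± 0.07 (adjusted p 0.0357). All of these 4 calls were lost with library totals as the only scaling, under which DERL1 changed sign, and the OS9 and DERL1 calls each also without any 1 of 4 pigs.

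Cell markers were called in the same ligation comparisons. In MLE pigs edgeR called 6 of 9 hepatocyte markers lower (median -0.57), 6 of 8 cholangiocyte markers higher (1.27), 4 of 8 stellate and myofibroblast markers higher and 1 lower (0.73), 1 of 9 macrophage markers higher and 3 lower, 2 of 8 endothelial and 2 of 6 erythroid markers lower, 1 of 6 neutrophil markers higher, and 1 of 8 plasma and B cell markers lower. In ENT pigs 1 hepatocyte marker was higher and 3 lower (median -0.15), 5 cholangiocyte markers were higher (1.02), 2 stellate markers higher and 1 lower (0.44), 1 macrophage marker higher and 2 lower, 2 endothelial markers lower, 1 neutrophil marker higher and 1 plasma and B cell marker lower. In SLE pigs the calls were 1 higher each for cholangiocyte, stellate, macrophage and neutrophil markers, and no hepatocyte marker was called (4 of 9 at an unadjusted p under 0.05). The part of these markers in the members' ligation differences was not tested.

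No member's ligation response passed the threshold between diets in edgeR (SLE against ENT, MLE against ENT, MLE against SLE), where 2.33%, 0.0617% and 0.265% of all genes did. At an unadjusted p under 0.05 there were 4, 1 and 6 members, and DESeq2 also called 0 in each, with 4, 1 and 6 unadjusted. These unadjusted counts are given without the share of all genes at that level and are not results about the members. HSPA5 response differences were -0.01 ± 0.26, -0.13 ± 0.28 and -0.12 ± 0.28. For DERL3 they were -0.07 ± 0.51, 0.15 ± 0.54 and 0.23 ± 0.52. The smallest adjusted p was 0.129, for ERN1 between SLE and ENT.

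The lipids were then compared with each other. Between MLE-sham and SLE-sham 0 members passed the threshold in edgeR in either direction, where 0.37% of all genes were higher and 0.629% lower; 7 had an unadjusted p under 0.05, and DESeq2 called 0 (9 unadjusted). CRELD2 had the smallest adjusted p, with a log2 fold change of -0.79 ± 0.28 (adjusted p 0.186), and all of its MLE-sham pigs lay within the SLE-sham range. The members' median was -0.16 and 33 of 38 were negative, or 36 of 38 with library totals as the only scaling. Between MLE-BDL and SLE-BDL 0 members were higher and 3 lower, where 0.216% and 0.691% of all genes were. At an unadjusted p under 0.05 there were 21, and DESeq2 called 0 higher and 4 lower, PDIA4 besides the others. The unadjusted counts of 7 and 21 are given without the share of all genes at that level and are not results about the members.

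The members lower in MLE-BDL were EDEM2, described above, DERL2, at -0.35 ± 0.09 (adjusted p 0.0457), and SEC61A1, at -0.39 ± 0.10 (adjusted p 0.0466). DERL2 ranges in MLE-BDL and SLE-BDL livers nearly touched. The highest of the 8 MLE-BDL pigs stood at 53.83 CPM (replicate 8) and the lowest of the 11 SLE-BDL pigs at 53.85 CPM (replicate 9). How many of all genes do not overlap between groups was not counted, here or in the other comparisons. The DERL2 and SEC61A1 calls were lost with the identifier block, no filter, library totals only and the fit of these groups alone, and also without any 1 of 10 pigs (DERL2) or 16 pigs (SEC61A1). With the replicate number as a block 5 members were lower, DNAJC3 and PDIA4 with the other 3. All 38 members were negative, with a median of -0.29 against 0.00 over all genes tested, and 33 were negative with library totals as the only scaling, where the median was -0.15. Several other lists also had negative medians between these groups, with at most 1 gene called lower in each. The 9 hepatocyte markers had a median of -0.27 (7 negative, 1 called lower), the 15 cytosolic chaperones -0.21 (15 negative, 1 called lower) and the 6 neutrophil markers -0.86 (5 negative, 2 at an unadjusted p under 0.05). Medians were -0.19 for 31 other folding genes (28 negative, 1 called lower), -0.21 for 28 other translocation genes (26 negative, 15 unadjusted), -0.07 for 26 other ERAD genes (20 negative) and -1.73 for 6 erythroid markers (6 negative, all at an unadjusted p under 0.05). Plasma and B cell markers had a positive median of 0.30 (7 of 8 positive), and T and NK cell markers of 0.38 (5 of 6). Medians were also positive for cholangiocyte markers (0.19), stellate markers (0.10, 1 called lower) and genes of the PERK and ATF4 branch (0.03). No gene of these lists was called higher. The part of all these lists in the members' difference was not tested. The MLE pigs also carried the 4 highest identifier numbers, and with those as a block 0 members passed and the median was -0.18; lipid and number cannot be fully told apart.

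Further genes of the same machinery were counted the same way, always in SLE-sham, MLE-sham, SLE-BDL and MLE-BDL against their ENT group. Over all genes tested 13.9%, 10.7%, 10.4% and 8.53% were higher and 13.6%, 10.4%, 9.17% and 8.27% lower in these comparisons, and a list near such a share shows nothing of its own. Of 31 other folding genes 10, 6, 17 and 3 were higher and 2, 1, 0 and 0 lower, with median log2 fold changes of 0.17, 0.11, 0.25 and 0.08. CRELD1, a relative of CRELD2, rose by 0.86 ± 0.13 (adjusted p 6.44e-07) in SLE-sham, and HSPA13, a microsomal Hsp70, by 0.92 ± 0.17 (adjusted p 1.89e-05). Of 26 other ERAD genes that were tested, 9, 6, 8 and 3 were higher and 5, 3, 0 and 1 lower, with medians of 0.13, 0.12, 0.14 and 0.08. The deubiquitinase YOD1, which works with VCP, rose by 0.78 ± 0.13 (adjusted p 3.53e-06) in SLE-sham and 0.96 ± 0.14 (adjusted p 1.33e-06) in MLE-BDL. The ligase RNF103 changed by -0.62 ± 0.10 (adjusted p 2.13e-06) in SLE-sham.

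Of 28 other translocation, signal peptidase and oligosaccharyltransferase genes 15, 8, 16 and 2 were higher and 0, 0, 0 and 0 lower (medians 0.23, 0.14, 0.24 and 0.09) by edgeR; DESeq2 counts were not made for these lists or for the marker lists. SRPRA, the alpha subunit of the signal recognition particle receptor, changed by 0.44 ± 0.09 (adjusted p 0.000178) in SLE-sham and RPN2, an oligosaccharyltransferase subunit, by 0.46 ± 0.09 (adjusted p 6.55e-05) in SLE-BDL. Among 9 other sensor-linked genes 5, 2, 3 and 1 were higher and 1, 0, 0 and 0 lower; TRAF2, an IRE1 adaptor, changed by 0.99 ± 0.12 (adjusted p 7.84e-09) in SLE-sham. Of 15 chaperones of the cytosol, 3, 2, 3 and 0 were higher and 1, 2, 2 and 2 lower (medians 0.17, 0.06, 0.17 and -0.10). HSP90AB1 changed by -0.48 ± 0.07 (adjusted p 4e-07) in SLE-sham, and DNAJB1 by 0.76 ± 0.13 (adjusted p 1.2e-05).

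Of 14 genes of the PERK and ATF4 branch 10, 8, 10 and 8 were higher and 1, 0, 0 and 0 lower, and 5, 5, 6 and 6 were past 2-fold, with medians of 0.42, 0.31, 0.50 and 0.43. DDIT3, which encodes the transcription factor CHOP, rose by 1.43 ± 0.19 (adjusted p 4.08e-08) in SLE-sham, 1.33 ± 0.20 (adjusted p 6.58e-07) in MLE-sham, 1.79 ± 0.20 (adjusted p 2.06e-09) in SLE-BDL and 1.81 ± 0.21 (adjusted p 5.04e-09) in MLE-BDL. DDIT4 rose by 1.79 ± 0.21 (adjusted p 1.46e-09) in SLE-sham, and TRIB3 by 2.18 ± 0.30 (adjusted p 4.6e-07) in MLE-BDL. ASNS, the asparagine synthetase gene that ATF4 drives, rose by 1.44 ± 0.19 (adjusted p 1.36e-07) in MLE-BDL. After ligation 2 of the 14 were higher and 2 lower in ENT pigs, and 2 higher and 1 lower in SLE and in MLE pigs. PPP1R15A rose by 0.82 ± 0.16 (adjusted p 0.000242) in ENT, 0.85 ± 0.17 (adjusted p 0.00163) in SLE and 1.15 ± 0.19 (adjusted p 1.83e-05) in MLE pigs, while ATF5 changed by -0.81 ± 0.15 (adjusted p 9.65e-05), -0.62 ± 0.15 (adjusted p 0.0112) and -0.79 ± 0.17 (adjusted p 0.000875).

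DERL3, MANF, CRELD2 and SDF2L1 are also strongly expressed in plasma cells and exocrine cells, so markers of other cells were read in the same livers. Plasma and B cell markers (9 gene entries, POU2AF1 the most abundant, none with a median count of 0) summed to medians of 12.5, 11.6, 10.5, 9.25, 10.3 and 10.5 CPM, and in the 4 PN comparisons edgeR called no tested gene higher and 0, 0, 2 and 1 of 8 lower (2, 0, 4 and 2 at an unadjusted p under 0.05). Of 6 pancreatic acinar genes in the table CPA1 was the most abundant, PNLIP and CTRC had median counts of 0 in every group, and the sums had medians of 4.13, 2.48, 2.03, 2.02, 2.57 and 2.17 CPM; CPA1, the only 1 of them tested, was called lower in SLE-sham (-1.13, adjusted p 0.0111). Cholangiocyte markers (8 genes, CLDN4 the most abundant, none at a median count of 0) summed to 147, 322, 324, 391, 225.0 and 376 CPM, with 3, 2, 1 and 2 of 8 called higher in the 4 PN comparisons and none lower. Erythroid markers (6 genes, HBB the most abundant, none at a median count of 0) summed to 1150.0, 1146, 442, 560.2, 519.8 and 215 CPM, with 2, 2, 1 and 4 of 6 genes called lower in the 4 PN comparisons. Of the 9 hepatocyte markers 1, 3, 1 and 0 were called higher and 3, 1, 1 and 1 lower. The part of the plasma and B cell, hepatocyte, acinar, cholangiocyte, erythroid and following lists in the members' differences was not tested.

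Neutrophil markers (6 genes, CSF3R the most abundant, none at a median count of 0) summed to 8.57, 12.4, 10.96, 20.1, 7.30 and 14.2 CPM, and edgeR called 1 gene higher in SLE-sham and 1 in SLE-BDL, where all 6 were positive with a median log2 fold change of 0.93. Stellate and myofibroblast markers (8, COL3A1 the most abundant) came to 1437, 2750.0, 2048, 2376, 1830.0 and 4033 CPM, macrophage markers (9, CD5L) to 1900.0, 1371, 1593, 1230.0, 1499 and 1130.0, and endothelial markers (8, STAB2) to 1176, 1067, 1030.0, 1049, 1068 and 879.9; none of these had a marker at a median count of 0. No stellate marker was called in the 4 comparisons (1, 0, 1 and 1 at an unadjusted p under 0.05), while 2 macrophage markers were higher and 1 lower in SLE-sham and 1 lower in MLE-sham, and 1 endothelial marker was lower in SLE-sham and 1 in MLE-BDL. T and NK cell markers (7 gene entries, NKG7) summed to 11.8, 14.4, 12.8, 10.9, 11.2 and 13.8 CPM, with GZMA at a median count of 0 in SLE-sham, MLE-sham and MLE-BDL, and 2 of the 6 tested were called lower in SLE-BDL, where their median log2 fold change was -0.67.

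Pigs within a group varied together in most members. MLE-BDL replicate 2 was the lowest of its 8 pigs for 36 of the 38 members, SLE-sham replicate 10 the lowest of 10 for 34, and SLE-BDL replicate 11 the lowest of 11 for 25. At the other end SLE-sham replicate 5 was the highest of its group for 22 members, ENT-BDL replicate 4 for 20 and MLE-sham replicate 2 for 19. After each group's mean log2 CPM was subtracted, 35 of the 37 other members correlated positively with HSPA5 over the 60 pigs at an adjusted permutation p under 0.05 (37 relations, Benjamini-Hochberg). HSP90B1 had the highest Pearson r, 0.939, with a Spearman rho of 0.919. Each p was 1e-05, the smallest that these permutations can give, and the adjusted p were 1.2e-05 and 1.4e-05. MANF (r 0.937, and the highest rho, 0.923) and DNAJB11 (r 0.931, rho 0.917) had the same p.

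By role, the median r with HSPA5 was 0.894 for chaperones, 0.879 for oxidoreductases, 0.792 for lectins, 0.742 for ERAD, 0.600 for translocation and 0.511 for sensors. The 2 members that fell outside were OS9 (r 0.142, permutation p 0.28; rho 0.0236, p 0.86) and ERN1 (r -0.125, permutation p 0.34; rho -0.0253, p 0.85). DERL3, with the largest fold changes, had an r of 0.760 and a rho of 0.679. Over all 37 the median r was 0.760, against -0.0143 over the other 16172 genes tested, of which 1.37% had an r over 0.5 against 33 of the 37 members. The members share their libraries and their scaling with HSPA5. Chosen after their values were seen, the closest genes outside the members were SELENOS (r 0.863), SERP1 (0.853) and TMEM241 (0.844).

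Without SLE-sham replicate 10 and MLE-BDL replicate 2, the pigs farthest from the median of HSPA5, the same count of 35 passed and the median r was 0.714. In all 60 pigs with the identifier number subtracted it was 0.784, and without the matching ENT libraries 0.780, again with 35 past the threshold each time. Within the single groups the median r of the 37 members was 0.747 and 0.678 for ENT (sham, then ligated), 0.907 and 0.781 for SLE, and 0.841 and 0.920 for MLE.

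**Figure D3:**
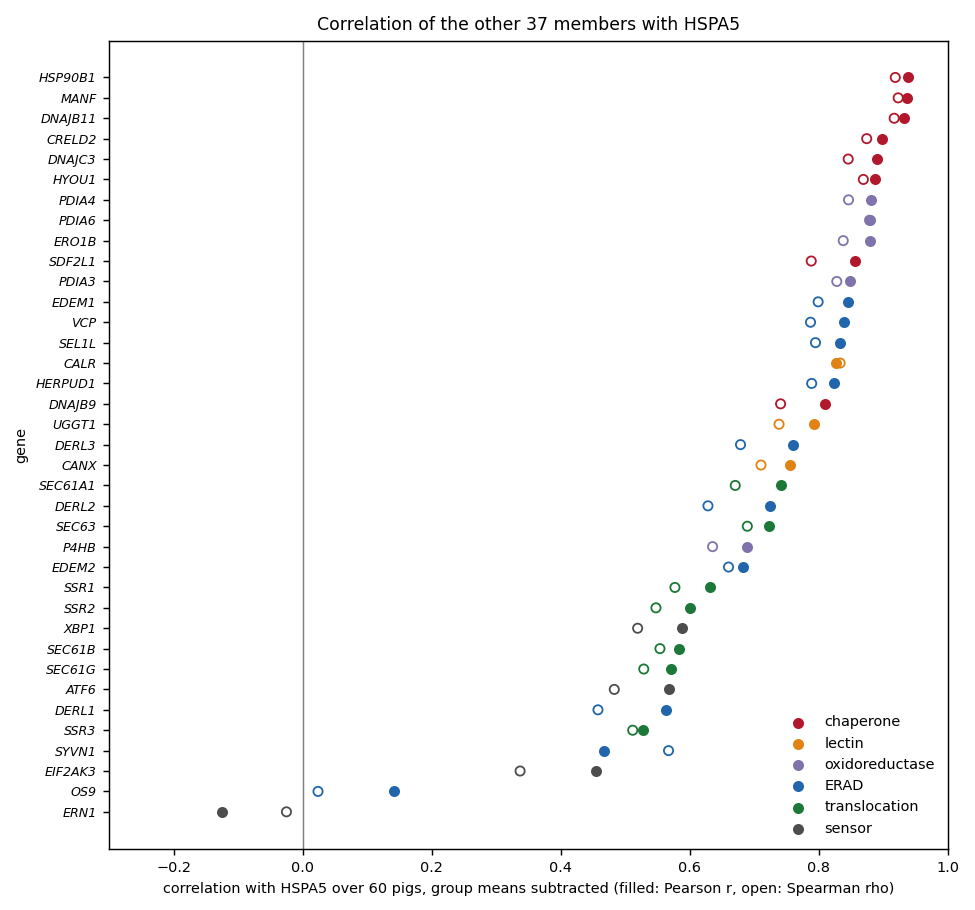
Pearson r (filled) and Spearman rho (open) of each of the other 37 members (vertical axis) with HSPA5 (horizontal axis) over 60 pigs, group means of log2 CPM subtracted; color gives the role. HSP90B1 stands highest in Pearson r at 0.939 and ERN1 lowest at -0.125.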

How the data were processed

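The authors deposited read counts per gene as whole numbers without scaling; their processing notes name HISAT2 2.0.5, StringTie 1.3.3 and featureCounts 1.5.0-p3 on Sscrofa11.1. Gene length in bases was deposited by the authors beside the counts and served only for levels per length. The sequences were not analysed. Features with a gene name were used (30335); 24 unnamed features, with 0.0084% to 0.0407% of a library's counts, were left out of the tests.

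All 60 libraries, SLE-sham replicates 9 and 10 as separate ones, entered 1 quasi-likelihood model of edgeR 4.0.16 (R 4.3.3, limma 3.58.1) with 6 groups, the trimmed mean of M values, filterByExpr and robust fitting. Tests were two-sided, with Benjamini-Hochberg adjustment across all genes tested. Log2 CPM used a prior count of 2. The floor was set at 3 counts. DESeq2 1.42.0 was an alternative. Correlations used residuals from group means and 100000 permutations within groups. Python 3.11.15 ran numpy 2.4.6, scipy 1.17.1, pandas 2.3.3 and matplotlib 3.10.9. The methods were tested on simulated data. Pigs were not paired by replicate number.

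The members and the gene lists were chosen with earlier results of these data known. Other scalings, filters, blocks and sets of pigs were compared with this model, including fits without the matching ENT libraries and without single pigs. Members past 2-fold at an adjusted p under 0.05 in any comparison of groups were given in full. Of the others, the member with the smallest adjusted p in a comparison of groups was given with its lowest, median and highest pig in the groups of that comparison.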

Additional observations from a re-analysis of the deposited data

Results flagged for a closer look

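The 38 members were looked at in each of the 4 groups of 10 pigs or fewer (152 sets of values; the ENT-sham and SLE-BDL groups are larger and were not looked at), and 14 sets held a pig set apart from the rest. Chance flags about 1 in 20 sets that are independent; these 14 came from 4 pigs, in which members vary together. In SLE-sham replicate 10, HSPA5 was the lowest of its group at 806 CPM (next pig 1640.0), CANX was the lowest of its group at 511 CPM (next pig 711), ERO1B was the lowest of its group at 9.01 CPM (next pig 17.0), SEC61A1 was the lowest of its group at 230.0 CPM (next pig 365), ATF6 was the lowest of its group at 78.3 CPM (next pig 99.4). In ENT-BDL replicate 4, DNAJB9 was the highest of its group at 179 CPM (next pig 101), SEC63 was the highest of its group at 191 CPM (next pig 135), ATF6 was the highest of its group at 146 CPM (next pig 110.0), ERN1 was the lowest of its group at 45.1 CPM (next pig 81.7). In MLE-BDL replicate 2, DNAJB11 was the lowest of its group at 46.1 CPM (next pig 79.4), MANF was the lowest of its group at 65.9 CPM (next pig 114), DERL2 was the lowest of its group at 39.0 CPM (next pig 46.9), SSR3 was the lowest of its group at 135 CPM (next pig 159). In MLE-sham replicate 2, P4HB was the highest of its group at 2450.0 CPM (next pig 1910.0).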

How the results depend on the processing

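Of 109 calls of members in the 9 comparisons of groups, 89 were kept in every alternative other than leaving out a pig, 96 without any 1 pig, and 87 in both. In ENT-BDL vs ENT-sham the 4 called members became 1 with library totals only, 2 with no filter and 2 with only the groups compared. In SLE-BDL vs SLE-sham the 1 called member became 0 with library totals only, no filter, only the groups compared and the identifier block. In MLE-BDL vs MLE-sham 4 became 8 with only the groups compared; with library totals only the 0 higher and 4 lower members became 3 higher (ATF6, EIF2AK3 and SEC61G) and 0 lower. In MLE-BDL vs SLE-BDL 3 became 1 with library totals only, 1 with no filter, 0 with only the groups compared, 0 with the identifier block and 5 with the replicate block. Requiring over 2-fold left 0, 0, 0 and 0 in these 4 comparisons, 11 of 26 in SLE-sham vs ENT-sham, 6 of 23 in MLE-sham vs ENT-sham, 11 of 28 in SLE-BDL vs ENT-BDL and 5 of 20 in MLE-BDL vs ENT-BDL.

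DERL1 changed sign in MLE-BDL vs MLE-sham with library totals only, at 0.0082 (adjusted p 0.936). That scaling moved the median of all genes by 0.103 in ENT-BDL vs ENT-sham, 0.211 in MLE-BDL vs MLE-sham, 0.136 in MLE-BDL vs SLE-BDL, and 0.107 and 0.208 in the ligation responses of MLE vs ENT and MLE vs SLE. Of the genes called, the share that was higher went from 51.0% to 78.1%, 54.4% to 91.3%, 23.8% to 80.8%, a lower share to 80.0%, and 25.6% to 87.9% in that order. It went from 53.2% to 34.4% in SLE-BDL vs ENT-BDL, 50.8% to 69.1% in MLE-BDL vs ENT-BDL, 50.8% to 40.4% in MLE-sham vs ENT-sham, 37.0% to 17.1% in MLE-sham vs SLE-sham and 54.1% to 26.8% in the response of SLE vs ENT.

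Without each pig in turn the called members numbered 2 to 7 in ENT-BDL vs ENT-sham (7 without ENT-sham replicate 2), 0 to 1 in SLE-BDL vs SLE-sham (0 without any of 11 pigs), 2 to 5 in MLE-BDL vs MLE-sham (2 without MLE-BDL replicate 3 or 5) and 1 to 4 in MLE-BDL vs SLE-BDL. The replicate block cost SYVN1 (ENT-BDL vs ENT-sham) and PDIA3 (MLE-sham vs ENT-sham) their calls and added EIF2AK3 (higher, SLE-BDL vs ENT-BDL) and, in MLE-BDL vs SLE-BDL, DNAJC3 and PDIA4; pigs of different groups with the same replicate number correlated at a median of -0.0173 over 137 pairs, against -0.00415 over 1358 others. With the identifier number it was 0.129 over 177 pairs that shared it, against -0.0186 over 1318 others; that block added OS9 (lower, SLE-BDL vs ENT-BDL). The members' median in MLE-BDL vs SLE-BDL went from -0.29 to -0.15 with library totals only and -0.18 with the identifier block.

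Limits: SLE-sham replicates 9 and 10 share a pig identifier and no fit joined them, MLE pigs carried only the 4 highest identifier numbers, the cause of the match between ENT-sham replicate 2 and ENT-BDL replicate 1 was not tested, and gene counts show neither splicing nor protein. The cause of the low members in MLE-BDL replicate 2 and SLE-sham replicate 10 was not tested.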
